A study of Mus musculus with 9 samples.

Results

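miR-455 is a microRNA (miRNA) whose hairpin lies within an intron of Col27a1, the gene of a fibrillar collagen chain made mainly in cartilage. Its entries were taken from a table of small-RNA counts in B16F1 cells, an established mouse melanoma line derived from C57BL/6J skin. All entries listed under the hairpin mmu-mir-455 and all mature names of miR-455 were taken, which gave 21 of the 6414 entries of the table, namely 19 sequence tags and 2 mature names. They held 1969 of 2381030 counts. A tag is a read sequence of at most 20 nt, listed with the hairpin it was assigned to and the position at which it starts there. Tags that start before position 35 were summed as the 5p arm and the others as the 3p arm, the products of the left and right sides of the hairpin. miR-455 was picked out because its 3p sum had stood out under 5-Brd-2′-dU in earlier results from these counts, so its levels in those cells are given as a description, with no test.

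The 9 libraries came from 9 cultures, and the labels call the 3 of each group independent replicates. The control cells were not exposed. The L-Tyr cells received 5 mM L-tyrosine, the amino acid from which melanin is made, for 72 h. The 5-Brd-2′-dU cells, called BrdU in the labels, received 2.5 µg/mL of this thymidine analogue for 72 h. All cultures grew in the same medium with fetal bovine serum, and the comparisons ask which miRNAs accompany the darker cells under L-Tyr and the paler cells under 5-Brd-2′-dU.

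A miRNA is cut from the stem of a hairpin and guides a silencing complex to target mRNAs. It does so mainly through its seed, bases 2 to 8 from the 5′ end, so that a cut shifted by a single base gives another seed. Both arms of miR-455 are known to be used, with the 3p arm the more abundant in many tissues. In chondrocytes the miRNA is known to be expressed together with miR-140 downstream of Sox9, in brown fat it is known as a promoter of differentiation, and in melanoma its 5p arm is known as a substrate of A-to-I RNA editing.

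The mature sequences below are those of RefSeq (GRCm38.p6, plus strand), with the seed in capitals, and show what each arm would recognise. The 5p arm lies at chr4:63256867-63256888 and the 3p arm at chr4:63256904-63256924.
mmu-miR-455-5p: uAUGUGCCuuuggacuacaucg
mmu-miR-455-3p: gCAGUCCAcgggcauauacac

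In mm9 (NCBIM37), the build of the deposited counts, the hairpin covers chr4:62917885-62917966 on the plus strand. It lies in intron 10 of Col27a1 (62875038 to 62996025, 61 exons in the transcript used), on the strand of the gene, 2109 bp after exon 10 and 127 bp before exon 11. It is shown with both mature arms in capitals.
mmu-mir-455 hairpin: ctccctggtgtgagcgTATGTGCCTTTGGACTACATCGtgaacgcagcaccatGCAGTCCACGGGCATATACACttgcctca

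The tags with a start at 52, 53, 54 or 55 make up nearly the whole 3p arm, and a tag of 20 nt for each start, read from mm9, is shown with its bases 2 to 8 in capitals. Start positions count from 0 at the first base of the hairpin, as in the table, and start 53 is the 5′ end of the RefSeq miRNA. The single 5p tag is shown in the same way.
start 52: tGCAGTCCacgggcatatac
start 53: gCAGTCCAcgggcatataca
start 54: cAGTCCACgggcatatacac
start 55: aGTCCACGggcatatacact
start 15 (5p): gTATGTGCctttgga

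Among 1679 mature mouse miRNA names of RefSeq, the seed CAGUCCA belonged to miR-455-3p alone. The 5p seed AUGUGCC was shared with miR-5129-3p, which had no count in any library. The bases 2 to 8 of tags with a start at 52, 54 or 55, and those of the 5p tag, were the seed of 0 of these names.

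The library totals ran from 144452 to 424122 counts, and the 3 counts that an observed 0 still allows were worth 7.07 to 20.8 CPM of the total, depending on the library. CPM below are counts relative to the library total scaled by its TMM factor, and intervals and limits cover counting error only, since PCR copies cannot be told from independent molecules. Replicate 3 of 5-Brd-2′-dU stood apart from the other 8 libraries. Its stromal miRNAs (10 arms, led by miR-143-3p) summed to 269195 CPM against 1915 to 7608 CPM elsewhere, and its endothelial miR-126a arms to 7259 CPM against 61.8 to 271 CPM. Erythroid miRNAs (miR-451a, both arms of miR-144 and miR-486a-5p) summed to 7238 CPM against 0 to 404 CPM, and leukocyte miRNAs (miR-142a-5p, miR-223-3p and miR-150-5p) to 1502 CPM against 0 to 70.6 CPM. The melanocyte miRNAs, carried by miR-211, summed to 6974 CPM or more in every library and to 7370 CPM in this one, next to 7574 and 6974 CPM in replicates 1 and 2 of its group. Replicate 2 of L-Tyr held the highest stromal, erythroid and leukocyte sums among the other 8 libraries, but not all members of these lists were high there. Its stromal sum was carried by miR-143-3p (6840 CPM), while miR-199b-3p had 188 CPM against 274 to 380 CPM in control cells. Its leukocyte sum came from miR-150-5p alone. Its endothelial sum was 161 CPM, below the 260 and 271 CPM of 5-Brd-2′-dU replicates 1 and 2. It held the liver miRNA miR-122-5p at 78.4 CPM, next to 21.4 CPM in replicate 3 of 5-Brd-2′-dU and 0 in the other 7.

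miR-455-3p was detected in all 9 libraries, and the 3 libraries of the 5-Brd-2′-dU cells held 69.9% of its 1954 counts. In control cells its counts were 52, 92 and 92 in replicates 1 to 3, or 247, 207 and 406 CPM. Under L-Tyr they were 168, 130 and 55, or 1128, 510 and 284 CPM. Under 5-Brd-2′-dU they were 305, 445 and 615, or 1761, 1004 and 2195 CPM. Every 5-Brd-2′-dU library lay above every control library, while L-Tyr overlapped both other groups, with its replicate 1 above the lowest 5-Brd-2′-dU library and its replicate 3 below the highest control library. Such a separation was not rare, since 14.8% of the 283 arms tested between 5-Brd-2′-dU and control cells showed it in the same direction. In RNA from whole cultures, a change in the share of cells that make miR-455 and a change in its amount per cell cannot be told apart.

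**Figure D1:**
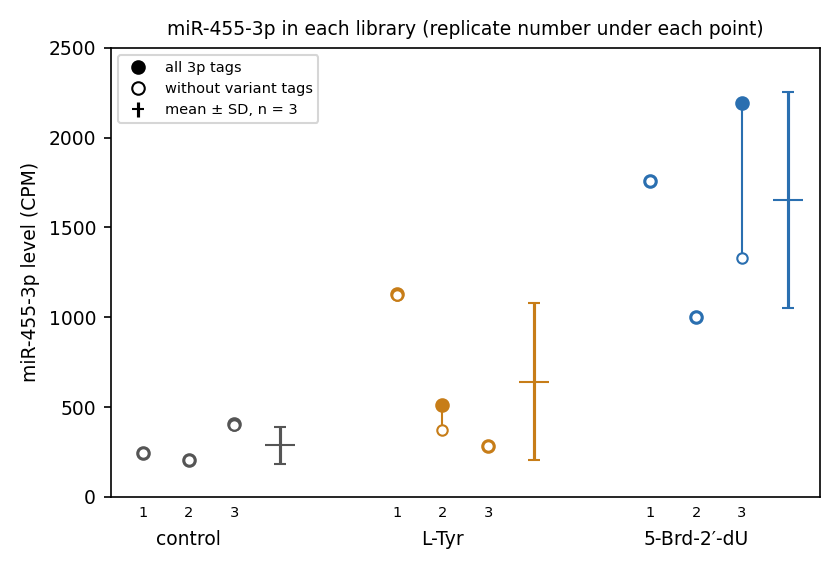
Level of miR-455-3p in each library in CPM (vertical axis) by group (horizontal axis). Filled points use all 3p entries, open points leave out the 3 tags with an internal mismatch, and the bars give the mean ± SD of the filled points (n = 3). The 3 libraries of 5-Brd-2′-dU sit between 1004 and 2195 CPM and the 3 control libraries between 207 and 406 CPM, and the open point of replicate 3 of 5-Brd-2′-dU falls to 1328 CPM.

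The group means ordered as control, L-Tyr and 5-Brd-2′-dU, at 287 ± 105, 641 ± 437 and 1653 ± 603 CPM (SD, n = 3 each). Among the 742 arms with a count, miR-455-3p ranked between 84 and 99 by level in the 5-Brd-2′-dU libraries, between 95 and 151 in L-Tyr and between 128 and 157 in control cells. It lay far below miR-211-5p, the melanocyte miRNA, which had between 6543 and 24639 CPM.

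L-Tyr and control cells, the comparison that the choice of miR-455 did not use, did not differ beyond the spread of their libraries. The log2 fold change of miR-455-3p was 1.10 (SE 0.643), with an adjusted p = 0.516 over 259 arms (quasi-likelihood test of edgeR, adjusted after Benjamini and Hochberg). In this comparison 2.32% of the arms were called at an adjusted p under 0.05, 1.93% higher and 0.386% lower in L-Tyr, and in 10% all L-Tyr libraries lay above all control libraries. Replicate 1 carried most of the difference, and without it the log2 fold change was 0.39. On simulated counts with a smaller spread than the real one, the test called 21.7% of arms with a log2 change of 1 in this comparison. The lack of a call therefore does not show equal levels.

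For 5-Brd-2′-dU relative to control cells the fitted log2 fold change of miR-455-3p was 2.50 (SE 0.456), and 17 of the 283 arms had a higher one. Relative to L-Tyr it was 1.47 (SE 0.583), with 28 of 252 arms higher. These 3 comparisons share libraries in pairs. Across all arms tested the median log2 fold changes were −0.10 and −0.09 for the exposures to L-Tyr and to 5-Brd-2′-dU relative to control cells, and 0.11 between the exposures. The arms called made up 3.18% in the comparison of 5-Brd-2′-dU with control cells (2.83% higher, 0.353% lower) and 2.38% in that with L-Tyr (1.19% higher, 1.19% lower), shares given only as the background because miR-455 was chosen on these values. Without replicate 3 of 5-Brd-2′-dU, the library with the stromal and blood miRNAs, the values for miR-455-3p were 2.30 relative to control cells and 1.16 relative to L-Tyr, and the part of that library's other miRNAs in its level was not tested.

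**Figure D2:**
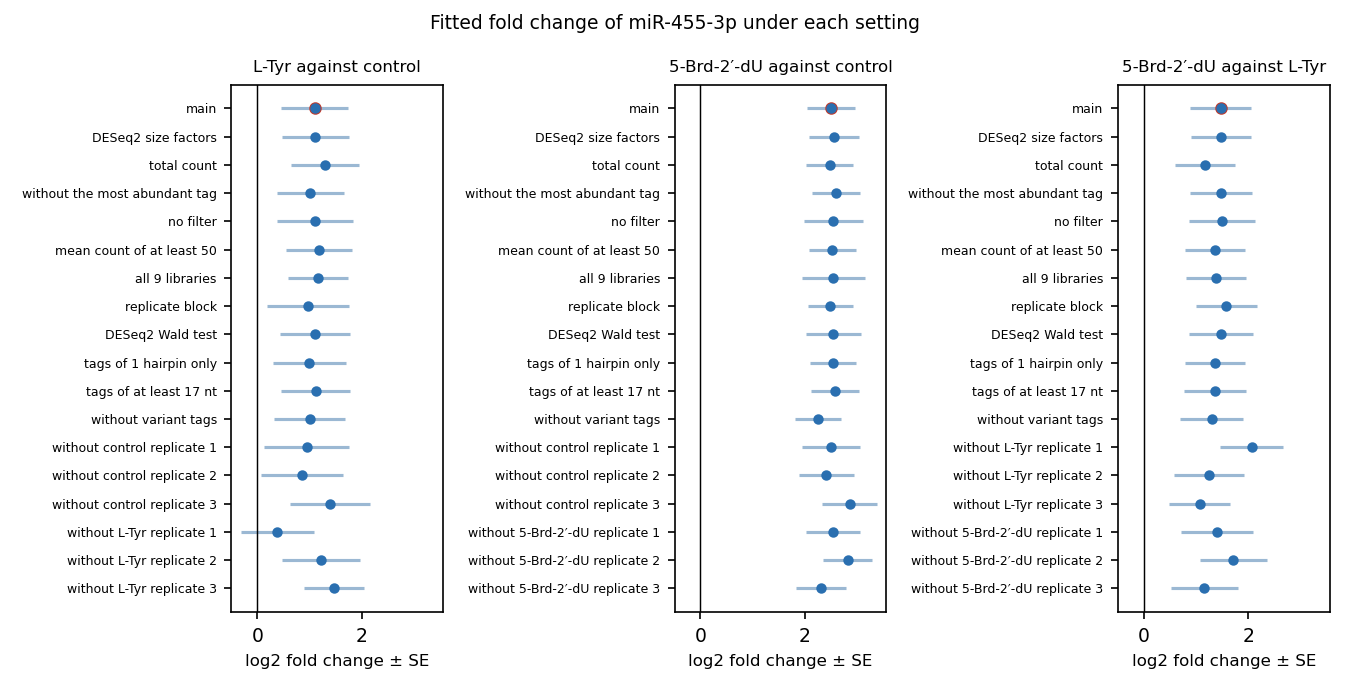
Fitted log2 fold change of miR-455-3p (horizontal axis, points with bars of 1 SE) under each setting (vertical axis) in the 3 comparisons, with the value given in the text in the top row. All points lie to the right of 0, from 0.39 to 1.46 for L-Tyr, from 2.25 to 2.85 for 5-Brd-2′-dU relative to control cells and from 1.07 to 2.07 relative to L-Tyr.

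The 3p arm was spread over 18 tags of 18 to 20 nt, and 1 of them was seen in all 9 libraries. That tag, the form with start 53 and 20 nt shown above, held 734 counts, or 37.6% of the 3p tag counts. Its counts were 30, 21 and 33 in control cells, 74, 7 and 8 in L-Tyr, and 181, 166 and 214 in 5-Brd-2′-dU. In CPM these were 142, 47.3 and 146, then 497, 27.5 and 41.3, and then 1045, 375 and 764. L-Tyr held both the lowest library of all and, in replicate 1, a level above the lowest 5-Brd-2′-dU library. The log2 fold change of this tag between L-Tyr and control cells was 0.64 (SE 1.28, edgeR adjusted p = 0.936 over 1240 tags, of which 0.0806% were called). For 5-Brd-2′-dU it was 2.69 (SE 0.635) relative to control cells and 2.05 (SE 0.977) relative to L-Tyr, again as a description, in comparisons in which 0.204% and 0.164% of all tags were called. As this tag occurs exactly in the hairpin, its values hold no count of the mismatched forms described below. Other exact tags with at least 5% of the arm had other fitted values. For 5-Brd-2′-dU relative to control cells, the form with start 53 and 19 nt had 0.86 (SE 2.01). The 20-nt forms with start 52 and start 54, absent from control cells, had 8.09 (SE 2.06) and 7.82 (SE 2.03). Relative to L-Tyr these 3 forms had 0.38 (SE 2.20), 1.11 (SE 1.94) and 0.98 (SE 1.94). The values of 8.09 and 7.82 do not measure the size of a change. Without a control count, they depend on the small count that the fit adds. Both forms also passed the filter on low counts only through the 5-Brd-2′-dU libraries.

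**Figure D3:**
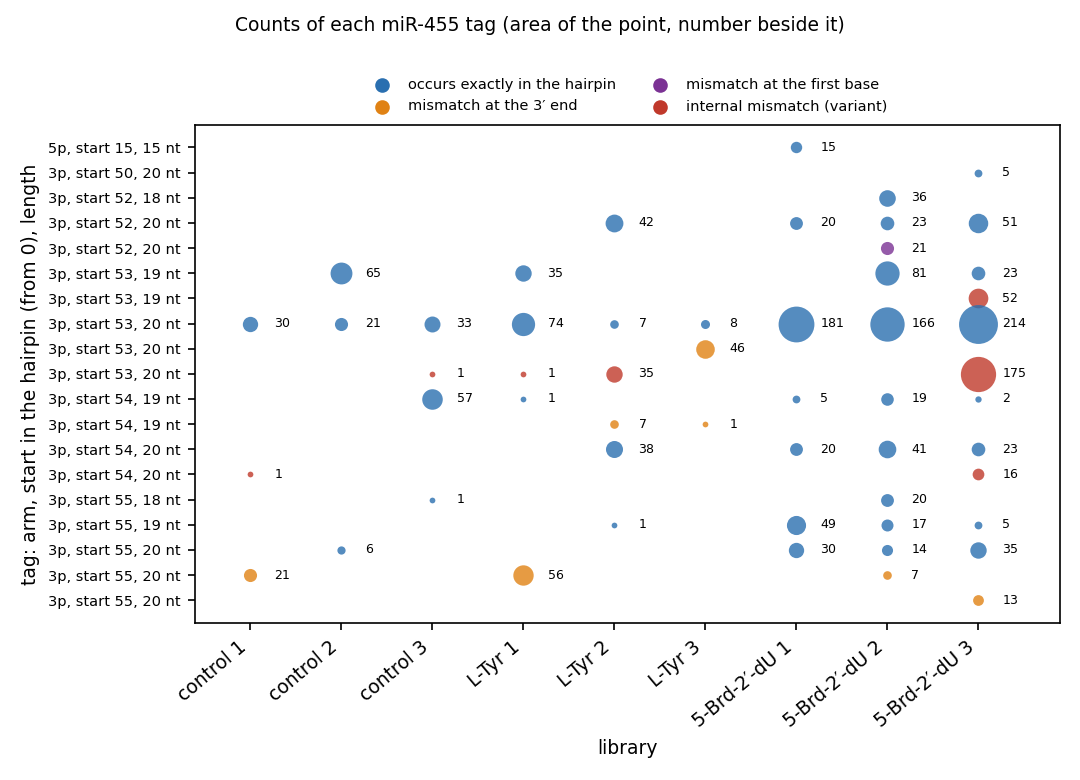
Counts of the 19 miR-455 tags (vertical axis, by arm, start and length) in the 9 libraries (horizontal axis), with the area of a point growing with its count, the count printed beside it and colour for the kind of mismatch to the hairpin. The tag with start 53 and 20 nt has a point in every library, while the tags with an internal mismatch gather in replicate 3 of 5-Brd-2′-dU and replicate 2 of L-Tyr.

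The other tags came and went between libraries. Of the 19 tags, 7 (36.8%) were seen in 1 library only, against 26.5% of all 4351 tags with a count. The number of 3p tags seen was 3, 3 and 4 in control cells, 5, 6 and 3 in L-Tyr, and 6, 11 and 12 in 5-Brd-2′-dU, where the counts were also higher. The form with start 53 and 19 nt, for example, had 65 of the 92 counts of control replicate 2 and 81 counts in replicate 2 of 5-Brd-2′-dU, but 0 in the other control libraries. In control replicate 3 the form with start 54 and 19 nt led with 57 counts, and it had 0 in control replicates 1 and 2. The levels given above for miR-455-3p are sums over all these tags.

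The start 53 of the RefSeq miRNA, with the seed CAGUCCA, was the commonest of the 5 starts, with 63.9% of the 3p tag counts. Start 55 held 14.1%, start 54 held 11.8%, start 52 held 9.89% and start 50 held 0.256%, so that tags with other bases 2 to 8 were a sizeable part of the arm. By library, start 53 took 57.7%, 93.5% and 37.0% of the 3p tag counts in control cells, 65.9%, 32.3% and 98.2% in L-Tyr, and 59.3%, 55.5% and 75.6% in 5-Brd-2′-dU. The 5-Brd-2′-dU libraries lay within the range of both other groups. The means were 62.7% ± 28.6, 65.5% ± 32.9 and 63.5% ± 10.7 (SD, n = 3 each). No difference was found between L-Tyr and control cells (2.74 percentage points, exact two-sided permutation test, p = 0.8), between 5-Brd-2′-dU and control cells (0.764 points, exact p = 0.9) or between the exposures (−1.98 points, exact p = 1). All 3 adjusted p were 1, and the smallest p that 3 libraries against 3 allow is 0.1, so that this design cannot reach 0.05.

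Start 52, which places an added base before the RefSeq end, was seen in all 5-Brd-2′-dU libraries, in 1 L-Tyr library and in no control library. It had 0 of 236 3p tag counts in the 3 control libraries together, which allows a share of up to 1.27%. In L-Tyr it had 42 counts, all in replicate 2, where they were 32.3% of the 3p tag counts, and 11.9% of those of the group. In 5-Brd-2′-dU it had 20, 80 and 51 counts in replicates 1 to 3, or 11.1% of the 3p tag counts of the group. Start 52 was singled out after its values were seen, and it was not tested. Shares also varied widely within a group, as start 54 took 1.92%, 0% and 62.0% in control replicates 1 to 3.

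**Figure D4:**
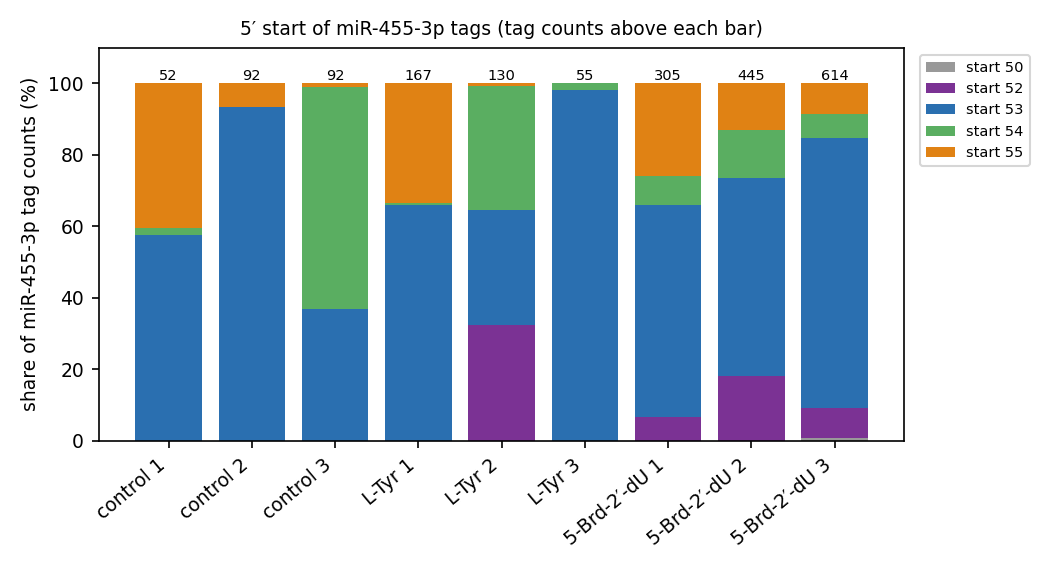
Share of the 3p tag counts of miR-455 (vertical axis, %) by the start of the tag in the hairpin (colours) in each of the 9 libraries (horizontal axis), with the number of tag counts above each bar. Start 53 runs from 32.3% to 98.2% and does not separate the groups, and start 52 is missing from the 3 control libraries.

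Most 3p tag counts, 76.8%, lay in the 10 3p tags that occur exactly in the hairpin, and each of these tags matched mm9 at this place only. Another 7.74% lay in 4 tags with a mismatch in the last 3 bases, 1.08% in a tag with a mismatch at its first base (T53A) and 14.4% in 3 tags with an internal mismatch. Substitutions give the base of the hairpin, its position counted from 1 at the first base of the hairpin, and the base of the tag. The 3′-end mismatches were A73T, T75C and T75G. They took 0% to 40.4% of the 3p tag counts in control cells, 33.5%, 5.38% and 85.5% in L-Tyr replicates 1 to 3, and 0% to 2.12% in 5-Brd-2′-dU. The high value in L-Tyr replicate 3 came from a single tag, start 53 with A73T and 46 counts, which no other library held. As the tags end at 20 nt at most, and 75.6% of the 3p tag counts lay in tags of this length, the 3′ ends of longer molecules were not seen.

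The internal mismatch was the same in all 3 of these tags, C62T. It falls on base 9 of the tags with start 53, outside the seed, and on base 8 of the tag with start 54, inside it. None of the 3 tags occurs exactly in mm9. Together they had 281 counts, of which 243 (86.5%) lay in replicate 3 of 5-Brd-2′-dU and 35 in replicate 2 of L-Tyr. The remaining 3 counts were 1 each in control replicates 1 and 3 and L-Tyr replicate 1. The changed form made up 39.5% (95% Wilson interval 35.7% to 43.4%) of the 3p counts of replicate 3 of 5-Brd-2′-dU and 26.9% (20.04% to 35.1%) of those of replicate 2 of L-Tyr. Replicates 1 and 2 of 5-Brd-2′-dU had 0 of 305 and 0 of 445, which allows up to 0.984% and 0.674%. From general knowledge, miR-455-3p is not identical in all mammals and the human form is known to differ from the mouse form by a single C-to-T change in this part, but no sequence of another species was compared here.

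Both libraries with more than 1 count of this form are the libraries described above for their stromal, blood or liver miRNAs. In replicate 3 of 5-Brd-2′-dU, an internal mismatch share as high as that of miR-455 was reached by 2 of 117 hairpins with at least 100 counts, miR-455 included. In replicate 2 of L-Tyr it was reached by miR-455 alone among 90 hairpins. High shares in a single hairpin also occurred in other libraries. Hairpins other than miR-455 reached up to 31.0% in replicate 1 of 5-Brd-2′-dU, 25.5% in control replicate 3 and 12.7% in L-Tyr replicate 3. Over all other hairpins placed on mm9, internal mismatches were 0.262% of the counts of replicate 3 of 5-Brd-2′-dU and 0.209% of those of replicate 2 of L-Tyr, within the range of 0.106% to 0.361% over all libraries. The part of the other miRNAs of these libraries in the changed form was not tested.

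Without the 3 changed tags, an alternative chosen after seeing the data, miR-455-3p was at 242, 207 and 401 CPM in control cells, 1121, 373 and 284 CPM in L-Tyr, and 1761, 1004 and 1328 CPM in 5-Brd-2′-dU. The 5-Brd-2′-dU libraries were still all above the control libraries, and their mean was 1364 ± 380 CPM against 284 ± 104 CPM (SD, n = 3 each). The log2 fold changes were then 2.25 (SE 0.440) relative to control cells and 1.30 (SE 0.603) relative to L-Tyr, and 1.00 (SE 0.675) for L-Tyr relative to control cells (edgeR adjusted p = 0.596).

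The 5p arm was nearly absent. Its single tag, of 15 nt, had 15 counts in replicate 1 of 5-Brd-2′-dU, or 4.69% of the counts of the hairpin there (95% Wilson interval 2.86% to 7.59%). In the other 8 libraries it had 0, which allows shares between 0.488% and 5.77%. The sequence of this tag starts a base before the RefSeq 5p miRNA and matches mm9 at 11 places, of which the hairpin is 1, so that its source is uncertain. L-Tyr and control cells both had a 5p share of 0 in all 3 libraries, so that no test of the arm balance could be made. Of the 19 tags, 0 differed from the hairpin by an A-to-G change, the change that RNA editing would leave in reads. As the only 5p tag had 15 counts in 1 library, editing of the 5p arm was not detectable at this depth.

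The arms whose pattern over the 9 libraries was most like that of miR-455-3p were sought among 182 arms with a mean count of at least 50, by Pearson correlation of log2 CPM, whose median over these arms was 0.003. The 5 highest were miR-125a-5p (r = 0.87, Spearman 0.78), the 3p arm of a predicted hairpin named after miR-22 (0.87, 0.88), let-7b-3p (0.86, 0.92), miR-99b-5p (0.83, 0.90) and miR-191-5p (0.81, 0.77). Without replicate 3 of 5-Brd-2′-dU the Pearson values were 0.83, 0.87, 0.84, 0.86 and 0.73. These arms share their libraries and the scaling of each library, so the values are a description.

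miR-99b-5p, known to be made from the same cluster as miR-125a, was the most abundant of the 5, with means of 32252 CPM in control cells, 52229 CPM in L-Tyr and 69122 CPM in 5-Brd-2′-dU. All its 5-Brd-2′-dU libraries (83753, 61324 and 62290 CPM) exceeded all its L-Tyr libraries (59753, 41957 and 54978 CPM), which exceeded all its control libraries (25538, 31788 and 39429 CPM). Over all arms tested, such a separation was seen in 11.9% for 5-Brd-2′-dU above L-Tyr and in 10% for L-Tyr above control cells, and this arm was picked for its likeness to miR-455-3p. miR-125a-5p, like miR-455-3p, had its highest L-Tyr level in replicate 1 and its lowest 5-Brd-2′-dU level in replicate 2, with 4070 CPM in L-Tyr replicate 1 against 2518 and 1494 CPM in the others, and 5600 and 4943 CPM in 5-Brd-2′-dU replicates 1 and 3 against 1972 CPM in replicate 2. Unlike miR-455-3p, it did not separate 5-Brd-2′-dU from control cells, which had 1998, 1769 and 1985 CPM, and its L-Tyr replicate 3 lay below every control library.

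**Figure D5:**
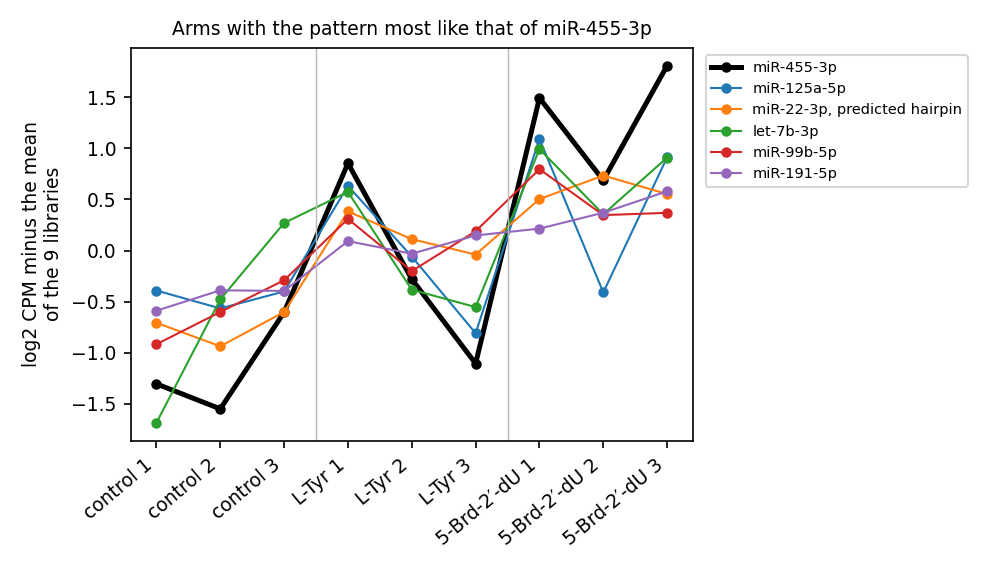
Level of miR-455-3p (thick line) and of the 5 arms most like it in each library (horizontal axis), as log2 CPM minus the mean of the 9 libraries (vertical axis). The mean of each of the 6 arms is lowest in control cells and highest in 5-Brd-2′-dU, and miR-125a-5p shares the single high L-Tyr library and the lower replicate 2 of 5-Brd-2′-dU with miR-455-3p.

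Of miR-140, the cartilage partner of miR-455, both arms were measured, and edgeR called neither in any comparison in which it was tested, with 0 at an unadjusted p under 0.05 and 0 called by DESeq2. miR-140-3p, its abundant arm, had 5685, 6402 and 8043 CPM in control cells, 5957, 5722 and 5815 CPM in L-Tyr, and 4930, 5309 and 5093 CPM in 5-Brd-2′-dU. Its log2 fold change was −0.42 for 5-Brd-2′-dU relative to control cells (edgeR adjusted p = 0.317). miR-140-5p, with 180 counts in all, had 142, 203 and 30.9 CPM in control cells. It had 235, 0 and 20.7 CPM in L-Tyr and 0, 31.6 and 0 CPM in 5-Brd-2′-dU. Its log2 fold change for 5-Brd-2′-dU relative to control cells was −3.41 (edgeR adjusted p = 0.330).

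The miRNAs known with miR-455 from brown fat were 8, with 7 arms in the table and 5 tested in each comparison. This list was chosen with earlier results of these data known, so calls of its members are not independent evidence. For L-Tyr relative to control cells edgeR called 0 of the 5, at a background of 2.32%, with 0 at an unadjusted p under 0.05 and 0 called by DESeq2. For 5-Brd-2′-dU relative to control cells edgeR called 0 of the 5, at a background of 3.18%, while 3 had an unadjusted p under 0.05, as did 54 of all 283 arms. DESeq2, which gave 7 members an adjusted p and called 28 arms in all against 9 by edgeR, called the same 3, miR-193b-3p and both copies of miR-365-3p. Over the 5 arms tested, both copies of miR-365-3p among them, the median log2 fold change for 5-Brd-2′-dU relative to control cells was 2.17, beside −0.09 over all arms. Relative to L-Tyr, where 1.19% of all arms were called higher, 1 of 5 was, miR-193b-3p, which is known to favour brown fat differentiation (log2 fold change 4.95, edgeR adjusted p = 0.0164). It had 0, 15.8 and 247 CPM in control cells, 6.72, 54.9 and 51.7 CPM in L-Tyr, and 1316, 1094 and 1006 CPM in 5-Brd-2′-dU, where its 3 libraries lay above all others, as did those of 14.8% of the arms in the comparison with control cells and 11.9% in that with L-Tyr. Its call was kept without replicate 3 of 5-Brd-2′-dU (adjusted p = 0.0426) and lost without L-Tyr replicate 2 or 3 or 5-Brd-2′-dU replicate 1 or 2 (adjusted p from 0.0971 to 0.137) and in a fit of all 9 libraries (adjusted p = 0.136). miR-365-3p, cut from the same cluster as miR-193b and from another hairpin with the same mature sequence, had log2 fold changes of 2.17 and 2.32 for 5-Brd-2′-dU relative to control cells (adjusted p = 0.111 and 0.0597), and its copies share reads. miR-27a-3p and miR-27b-3p, known as inhibitors of fat cell differentiation, had 1.08 and 0.10 (adjusted p = 0.367 and 0.885), and miR-27a-3p reached 81205 CPM in replicate 3 of 5-Brd-2′-dU against at most 24044 CPM elsewhere.

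The study had placed miR-29c-3p and miR-335-5p in a co-expression group with miR-455-3p on these same libraries, so their direction and their calls are not independent evidence. miR-335-5p, made from an intron of Mest, rose in 5-Brd-2′-dU relative to control cells by 2.92 on the log2 scale (edgeR adjusted p = 0.00251), a call kept without each library in turn and lost in a fit of all 9 libraries (adjusted p = 0.155). It had 361, 504 and 529 CPM in control cells, 450, 129 and 0 CPM in L-Tyr, and 3556, 3032 and 4193 CPM in 5-Brd-2′-dU. miR-29c-3p, known to target collagen mRNAs, had at most 399.7 CPM, in replicate 3 of 5-Brd-2′-dU, and was tested by edgeR only between the exposures (log2 fold change 1.66, adjusted p = 0.861). DESeq2, which tested both miRNAs of this list, called both for 5-Brd-2′-dU relative to control cells and neither between the exposures. It called more arms than edgeR over the whole table, 28 against 9 in the former comparison and 16 against 6 in the latter.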

How the data were processed

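RNA of 9 B16F1 cultures was made into TruSeq small-RNA libraries with 15 PCR cycles and sequenced in single reads. The authors ran the Small RNA app of BaseSpace on the reads, with mm9 as the build, and deposited raw counts per entry, which were used here. They also deposited normalized counts and tables of their DESeq2 comparisons (fold changes and p-values), which were not used. Groups came from the sample labels. The table's 9 columns were matched to samples by title.

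Counts were summed per hairpin arm and fitted over all arms in R 4.3.3 with edgeR 4.0.16 (TMM, filterByExpr, quasi-likelihood test, Benjamini-Hochberg adjustment, calls at an adjusted p under 0.05), on the 6 libraries of each comparison. The SE is the log2 fold change divided by the square root of F. Log2 CPM used a prior count of 2. Start shares were compared by exact permutation in scipy 1.17.1. Tables and figures used Python 3.11.15, pandas 2.3.3 and matplotlib 3.10.9, with DESeq2 1.42.0 as an alternative. The position of the hairpin came from GENCODE vM1 genes and its sequence from NCBIM37. The start of each tag was the one given in the deposited counts, and exact matches of each tag to NCBIM37 were sought apart from this. On simulated counts for 335 arms in the comparison of 5-Brd-2′-dU with control cells, the test called 94.9% of arms with a log2 change of 3 and 15.2% of those with a change of 1, with 2 false calls. The simulated spread between libraries was set below the real one, which edgeR fitted as a coefficient of variation of 0.752 over 283 arms. These rates therefore describe quieter data, and rates at the real spread were not tested.

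miR-455, its companion lists and the tests were chosen with earlier results of these data known. The text names both arms in every library, tags with at least 5% of their arm, the 5 arms most alike, any A-to-G tag and the members of the lists. The alternatives were DESeq2's size factors, total-count scaling, dropping the most abundant tag, no filter on low counts, arms with a mean count of at least 50, all 9 libraries in a fit, a block for the replicate number, DESeq2's Wald test, tags of 1 hairpin only, tags of at least 17 nt and leaving out each library. For the start shares they were tags of exactly 20 nt and tags that occur exactly in the hairpin.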

Additional observations from a re-analysis of the deposited data

How the results depend on the processing

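miR-455-3p had 52 to 615 counts per library, and 5p shares under 0.488% to 5.77% could not be seen. The log2 fold change of miR-455-3p kept its sign under all 11 alternatives in each comparison, at 0.97 to 1.29 for L-Tyr relative to control cells (0.39 to 1.46 leaving out a library, adjusted p from 0.327 to 0.926 over all of these), 2.25 to 2.59 for 5-Brd-2′-dU relative to control cells (2.30 to 2.85) and 1.18 to 1.58 relative to L-Tyr (1.07 to 2.07). The number of arms called moved far more, and the cause was not tested. From 6 for L-Tyr relative to control cells it went to 14 without a filter and 19 with DESeq2's Wald test, and to between 0 and 10 leaving out a library, with each of the 6 libraries moving it. From 9 for 5-Brd-2′-dU relative to control cells it went to 3 with total-count scaling, 50 without a filter, 28 with DESeq2's Wald test and 3 with tags of 1 hairpin, and to between 1 and 15 leaving out a library, where the control libraries and 5-Brd-2′-dU replicate 2 moved it. From 6 between the exposures it went to 30 without a filter, 3 with all 9 libraries and 16 with DESeq2's Wald test, and to between 0 and 5 leaving out a library, where L-Tyr replicate 3 and 5-Brd-2′-dU replicate 2 moved it.

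The difference in the share of start 53 changed sign with the tags counted, and all exact p were 0.4 or more. For L-Tyr minus control cells (2.74 percentage points) it was −14.6 with tags of 20 nt, −7.57 with tags exactly in the hairpin, −5.78 without the C62T tags and −13.6 to 19.3 leaving out a library. For 5-Brd-2′-dU minus control cells (0.764) these were −9.74, −15.0, −3.28 and −12.1 to 16.1. For 5-Brd-2′-dU minus L-Tyr (−1.98) they were 4.86 with tags of 20 nt, 2.51 without the C62T tags and −18.6 to 14.4 leaving out a library. The mean 5p share in 5-Brd-2′-dU was 1.56% and fell to 0 with tags of at least 17 nt or without replicate 1.

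Samples with the same replicate number did not deviate together (correlations of −0.109 to 0.0385 over 298 arms). No pairing by number was thus seen, but these values cannot show whether cultures with the same number were handled together. With a replicate block the log2 fold changes of miR-455-3p were 0.97 and 2.49 for L-Tyr and 5-Brd-2′-dU relative to control cells and 1.58 between the exposures, and the arms called were 1 for 5-Brd-2′-dU relative to control cells and 0 relative to L-Tyr. The call of miR-193b-3p between the exposures was lost with the block (edgeR adjusted p = 0.186), and that of miR-335-5p for 5-Brd-2′-dU relative to control cells was kept (edgeR adjusted p = 0.0192).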
